A study of Mus musculus with 12 samples.

Results

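The pocket proteins, the DP partners of E2F and the MuvB core are the protein families through which E2F-regulated genes are held silent or released, and the RNA levels of their genes were measured in mouse embryonic fibroblasts (MEFs) with and without DNA breaks. The 10 members were taken by mouse gene symbol from the 37991 Ensembl gene identifiers of the count files: Rb1, Rbl1 and Rbl2 (pocket proteins), Tfdp1 and Tfdp2 (DP partners), and Lin9, Lin37, Lin52, Lin54 and Rbbp4 (MuvB core). Each symbol matched 1 identifier, and all 10 passed the filter on low counts that left 15327 genes for testing.

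The 12 RNA-seq samples were primary MEFs at passage 3 from FVB mice, which were either wild-type or homozygous for the E2f1 3KR knock-in allele, in which 3 lysines of E2F1 that can be acetylated are replaced by arginine. Cells of each genotype were left untreated or were given the radiomimetic drug neocarzinostatin (NCS), which breaks DNA, at 250 ng/ml for 3 h, with 3 samples in each of the 4 groups. The allele is carried in the germline, so every cell of a 3KR culture has it, but the substitutions themselves cannot be read from a table of gene counts. Nothing in the sample labels says that the 3 samples of a group came from separate embryos, so p-values measure the spread between these samples, which may be technical.

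Pocket proteins bind E2F transcription factors, which contact DNA as dimers with a DP protein, and recruit chromatin regulators that repress E2F target genes until cyclin-dependent kinases phosphorylate them. In resting cells, p107 or p130 (the products of Rbl1 and Rbl2) joins E2F4, DP and the MuvB core in the DREAM complex, which represses genes of both the G1/S and the G2/M programmes. In dividing cells the same MuvB core leaves the pocket proteins and joins B-Myb and FoxM1, with which it activates G2/M genes. After DNA damage, p53 induces the CDK inhibitor p21, which keeps pocket proteins unphosphorylated and so favours the repressive complexes.

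The promoters of the members were read for the letters through which this machinery is known to contact DNA. RefSeq promoter sequences on GRCm38.p6, which run from 250 bases before to 50 after the transcription start, were matched for 8 of the 10 members in 11 windows of 300 bases; Rb1 and Lin9 were not matched. The windows were searched on both strands for the E2F letters TTTCCCGC, TTTCGCGC, TTTGGCGC or TTTGCCGC, which were found in 2.26% of all 32851 promoter windows, and for the CHR letters TTTGAA, the kind of element that Lin54 contacts, which were found in 17.9%. The E2F and CHR letters cannot overlap each other, and each match is a description of the sequence and not of binding. The promoters shown are those of the 3 members with an E2F match (Rbl1, Tfdp1 and Lin52) and of Rbl2, a member with a CHR match, each written 5′ to 3′ along the gene with the matched letters in capitals. They lie at chr2:157204485-157204784 on the minus strand for Rbl1, chr8:13338501-13338800 on the plus strand for Tfdp1, chr12:84451258-84451557 on the plus strand for Lin52 and chr8:91069807-91070106 on the plus strand for Rbl2.
Rbl1: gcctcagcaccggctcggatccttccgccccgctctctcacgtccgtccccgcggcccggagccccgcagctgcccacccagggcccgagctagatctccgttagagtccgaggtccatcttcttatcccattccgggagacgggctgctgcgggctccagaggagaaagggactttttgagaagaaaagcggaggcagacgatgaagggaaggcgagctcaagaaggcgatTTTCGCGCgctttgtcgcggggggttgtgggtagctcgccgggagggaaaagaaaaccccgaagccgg
Tfdp1: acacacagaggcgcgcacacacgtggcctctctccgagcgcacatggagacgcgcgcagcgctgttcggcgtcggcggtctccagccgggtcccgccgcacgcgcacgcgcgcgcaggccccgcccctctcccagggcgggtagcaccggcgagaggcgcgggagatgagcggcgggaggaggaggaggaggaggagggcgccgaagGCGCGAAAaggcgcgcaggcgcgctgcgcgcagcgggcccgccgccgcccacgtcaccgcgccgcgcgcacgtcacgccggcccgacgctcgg
Lin52: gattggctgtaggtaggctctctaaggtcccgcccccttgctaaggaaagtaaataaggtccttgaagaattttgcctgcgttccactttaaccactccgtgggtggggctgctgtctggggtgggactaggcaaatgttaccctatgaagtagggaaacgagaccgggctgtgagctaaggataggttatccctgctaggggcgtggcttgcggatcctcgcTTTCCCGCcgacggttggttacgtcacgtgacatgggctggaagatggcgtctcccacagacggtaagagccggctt
Rbl2: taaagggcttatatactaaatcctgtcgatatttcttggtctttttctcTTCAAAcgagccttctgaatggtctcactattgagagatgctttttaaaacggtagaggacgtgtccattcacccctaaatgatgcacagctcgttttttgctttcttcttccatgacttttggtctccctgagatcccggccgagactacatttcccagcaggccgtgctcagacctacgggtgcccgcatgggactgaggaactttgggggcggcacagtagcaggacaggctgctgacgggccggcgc
Counted from the transcription start, the capitals begin at -18 in Rbl1, -43 in Tfdp1, -27 in Lin52 and -201 in Rbl2, and in Tfdp1 and Rbl2 the searched letters read on the opposite strand. A second Tfdp1 window, which starts further downstream, held the same match at -96. CHR letters were also found in Lin37 at -197 and in both windows of Lin54, at -162 and at 41. Neither set of letters was found in the 2 windows of Tfdp2 or in that of Rbbp4. Both Tfdp2 windows, which begin at 96258455 and 96258998 on chromosome 9, lie inside the gene, whose annotated start is 96196275. The sequence at that start was therefore not searched. The G+C content of the members' windows ran from 39.3% for the second window of Tfdp2 to 80.7% for the second window of Tfdp1, against a median of 52.7% over all promoter windows.

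The libraries held 33203757 to 45279321 gene counts each, and a floor of 3 counts corresponded to 0.0663 to 0.0904 CPM, the count scaled by the library total. The lowest raw count of any member in any sample was 227, for Lin52, and the highest was 9413, for Rbbp4, so no member was near the floor. Fibroblast markers made up 59200 to 68900 CPM in sum in every library, against 4.82 to 6.59 CPM for endothelial and 2.20 to 3.29 CPM for epithelial markers. Wild-type replicate 3 stood apart in both treatments: its chi-square per gene against its fellow replicates was 7.56 to 9.42, and that of every other pair within a group was at most 2.32. Xist and the Y-linked genes separated all 3KR samples from all wild-type samples, so genotype and cell sex cannot be told apart.

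Levels were compared between genes as RPKM, which divides counts by merged exon length and by the library total. Tfdp1, encoding the DP1 partner that most E2F factors use, was the most abundant member at a mean of 44.2 RPKM over the 12 samples (range 38.0 to 50.6). Rbbp4, a histone-binding protein that MuvB shares with several chromatin complexes, followed at 23.1 RPKM (21.2 to 23.8), and Lin37, a MuvB subunit needed for repression, at 9.06 RPKM (7.90 to 11.1). The ranges of these 3 genes did not overlap each other or those of any other member. Below them stood Lin54 (4.21 RPKM), Rbl1 (4.14 RPKM), Rb1 (3.40 RPKM), Rbl2 (2.83 RPKM), Lin52 (2.43 RPKM), Tfdp2 (2.09 RPKM) and Lin9 (1.59 RPKM), and each of these 7 overlapped its neighbour in that order in its range over the samples.

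Of the pocket proteins, Rb1, which encodes the retinoblastoma protein that restrains the activator E2Fs, showed the largest change of any member. Its normalized counts, raw counts scaled by DESeq2 size factors, were 583, 655 and 669 in untreated wild-type MEFs and 1104, 1128 and 1180 after NCS. In 3KR MEFs they were 514, 465 and 498 without treatment and 801, 947 and 862 after NCS. All NCS samples of either genotype lay above all untreated samples of both, and within each treatment all 3KR samples lay below all wild-type samples.

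Rb1 (chromosome 14, 73183673 to 73325822 on the minus strand of GRCm38) rose 1.79-fold with NCS in wild-type MEFs, a log2 fold change of 0.84 ± 0.065 (SE) with an FDR of 8.47e-10. The FDR is the Benjamini-Hochberg adjusted p of edgeR's quasi-likelihood test over 15327 genes, with a threshold of 0.05, and n is 3 per group throughout. In 3KR MEFs Rb1 rose 1.77-fold (log2 0.82 ± 0.069, FDR 2.85e-09). Only 2.90% of the tested genes had a larger absolute log2 fold change with NCS in wild-type MEFs, and 3.58% had one in 3KR MEFs. The difference between the responses was -0.02 on the log2 scale, with a 95% confidence interval of -0.217 to 0.179 (FDR 0.95). In bulk RNA, a change in RNA per cell and a change in the mix of cells cannot be told apart, for this gene or any other.

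In the comparison of genotypes, Rb1 was the one member called lower in 3KR MEFs. It fell by 0.37 ± 0.071 on the log2 scale without treatment (0.774-fold, FDR 0.000145) and by 0.39 ± 0.064 after NCS (0.764-fold, FDR 2.21e-05). Its exons overlap those of Rcbtb2 over 488 bases and of Lpar6 over 408 bases, both on the opposite strand, and the strand setting of the counting is not given in the sources used here. With NCS the log2 fold changes were -0.11 (FDR 0.129) in wild-type and -0.24 (FDR 0.00192) in 3KR MEFs for Rcbtb2, and -0.23 (FDR 0.174) and -0.16 (FDR 0.358) for Lpar6. Between the genotypes Rcbtb2 stood at -0.06 without treatment (FDR 0.413) and was, like Rb1, called lower in 3KR MEFs after NCS (-0.18, FDR 0.00958), while Lpar6 stood at -0.03 (FDR 0.866) and 0.04 (FDR 0.82). The part of shared reads in the values of Rb1 was not tested.

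Rbl1, encoding p107, a pocket protein that is itself made mainly by dividing cells, moved opposite to Rb1 in both comparisons of treatment and both of genotype. It had 933, 821 and 821 normalized counts in untreated wild-type MEFs and 767, 776 and 734 after NCS. In 3KR MEFs it had 1256, 1152 and 1182 without treatment and 982, 995 and 931 after NCS. The NCS samples lay below the untreated samples of their genotype, and the 3KR samples above the wild-type samples of their treatment, without overlap.

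Rbl1 (chromosome 2, 157145893 to 157204534, minus strand) was 38.6% higher in untreated 3KR than in untreated wild-type MEFs (log2 0.47 ± 0.057, FDR 3.13e-07) and 27.6% higher after NCS (log2 0.35 ± 0.060, FDR 3.46e-05). With NCS it fell by 0.30 ± 0.057 on the log2 scale in 3KR MEFs (FDR 0.000254) and by 0.18 ± 0.060 in wild-type MEFs (FDR 0.0242). The call in wild-type MEFs was lost without untreated replicate 1 (log2 -0.12, FDR 0.207), without NCS replicate 3 (FDR 0.0698) and when only the 6 wild-type samples were fitted (FDR 0.0532). The responses of the genotypes differed by -0.12 (95% confidence interval -0.290 to 0.0526, FDR 0.517).

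Rbl2, encoding p130, the pocket protein that predominates in resting cells, had 754, 758 and 731 normalized counts in untreated wild-type MEFs and 743, 735 and 706 after NCS. The counts were 991, 937 and 919 in untreated 3KR MEFs and 897, 823 and 800 in NCS-treated 3KR MEFs. The wild-type groups overlapped each other, and every 3KR sample stood above every wild-type sample. Rbl2 (chromosome 8, 91070057 to 91123844, plus strand) was 26.4% higher in 3KR MEFs without treatment (log2 0.34 ± 0.056, FDR 2.52e-05) and 15.5% higher after NCS (log2 0.21 ± 0.057, FDR 0.00471). With NCS it fell by 0.17 ± 0.056 on the log2 scale in 3KR MEFs (FDR 0.0215), while the change in wild-type MEFs was -0.04 ± 0.058 (FDR 0.647). The fall in 3KR MEFs was no longer called without untreated replicate 1 (FDR 0.111), NCS replicate 2 (FDR 0.0777) or NCS replicate 3 (FDR 0.115), and the difference between the genotypes' responses was not called (-0.13, 95% confidence interval -0.296 to 0.0362, FDR 0.451). Rbl2 shares 693 exon bases with Aktip on the opposite strand, for which no comparison was called (FDR 0.114 or more).

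**Figure D1:**
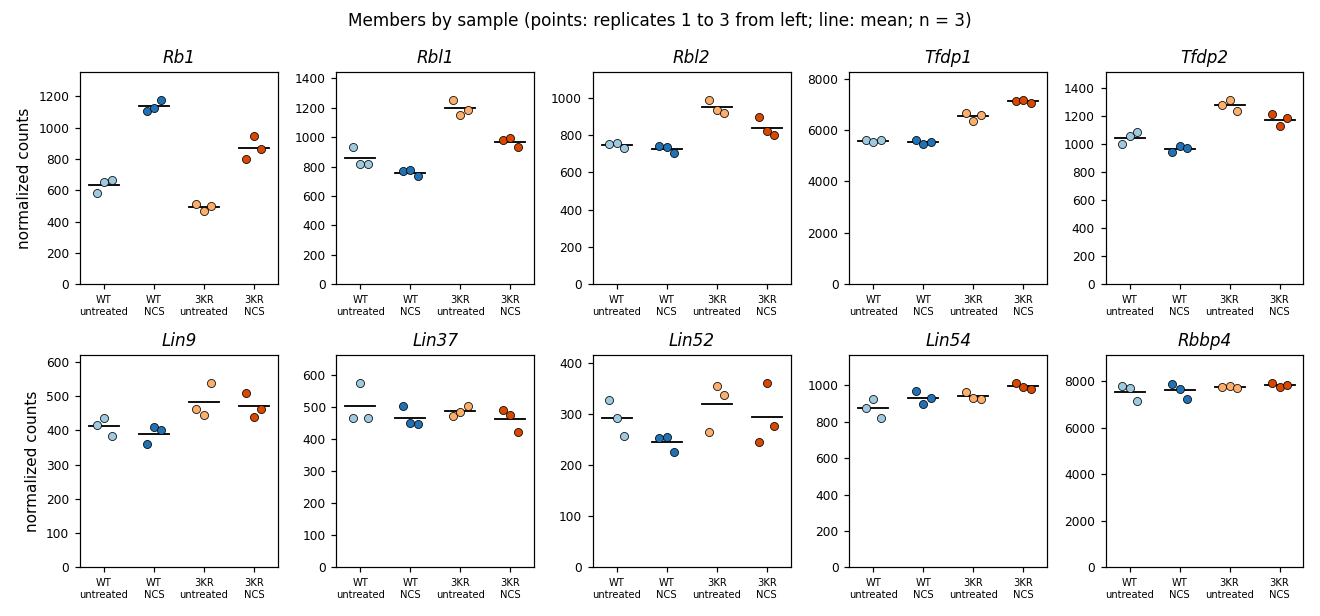
Normalized counts (raw counts scaled by DESeq2 size factors; linear axes from 0, scaled per gene) of the 10 members in each of the 12 samples, with untreated and NCS-treated wild-type (WT) and 3KR MEFs along the horizontal axis and a line at each mean of 3 samples. Rb1 stands at 1104 to 1180 in NCS-treated wild-type MEFs against 583 to 669 without treatment, Tfdp1 separates the genotypes in both treatments, and Rbbp4 lies between 7173 and 7943 in all samples.

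These opposite movements changed the make-up of the pocket protein RNA. Of the summed RPKM of Rb1, Rbl1 and Rbl2, the share of Rb1 was 30.4% ± 2.53 (SD, n = 3) without treatment and 45.9% ± 1.51 after NCS in wild-type MEFs, and it was 20.1% ± 0.493 and 34.6% ± 2.31 in 3KR MEFs. The share of Rbl1 was 41.2% ± 2.62 and 30.7% ± 0.869 in wild-type MEFs and 49.0% ± 0.167 and 38.7% ± 0.592 in 3KR MEFs, in the same order. Rbl1 was therefore the most abundant pocket protein RNA in 3 of the 4 groups, the exception being wild-type MEFs after NCS, where Rb1 was. Per length, Rb1 stood at 0.743 ± 0.105 of the level of Rbl1 in untreated and at 1.49 ± 0.0925 in NCS-treated wild-type MEFs, while the values of 3KR MEFs were 0.410 ± 0.0092 and 0.895 ± 0.0723. Only untreated wild-type and NCS-treated 3KR MEFs came near each other in this ratio, at 0.812. The sum of the 3 genes was 9.05 to 9.39 RPKM in untreated wild-type MEFs and 10.5 to 11.4 RPKM in the samples of the other 3 groups. The shares, ratios and sums are descriptions without a test, and an exact permutation of 3 samples against 3 could not give a p below 0.10.

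**Figure D2:**
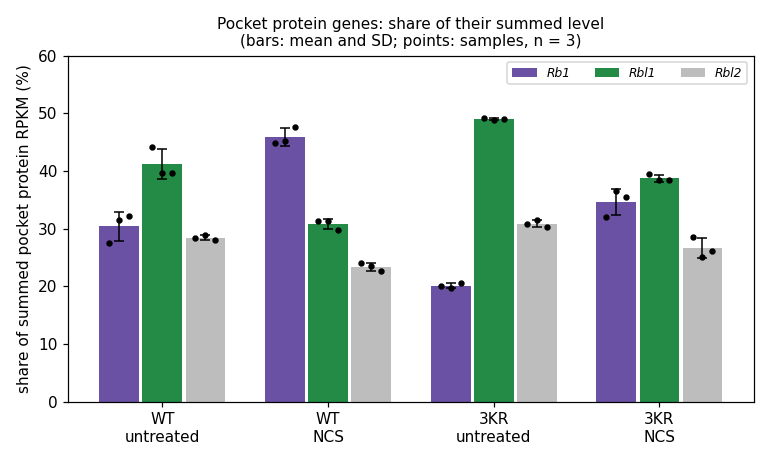
Share of each pocket protein gene in the summed RPKM of Rb1, Rbl1 and Rbl2 (vertical axis, percent, from 0), by genotype and treatment; bars are means, whiskers SD and points the 3 samples of each group. The share of Rb1 is 45.9% in NCS-treated wild-type MEFs and 20.1% in untreated 3KR MEFs, the group in which the share of Rbl1 is 49.0%.

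Both DP partner genes were higher in 3KR MEFs. Tfdp1 had 5609, 5522 and 5629 normalized counts in untreated and 5603, 5473 and 5548 in NCS-treated wild-type MEFs. The 3KR MEFs had 6648, 6370 and 6596 without treatment and 7142, 7188 and 7071 after NCS. Wild-type groups overlapped, all 3KR samples were above them, and NCS-treated 3KR samples were above the untreated 3KR samples.

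Tfdp1 (chromosome 8, 13338751 to 13378448, plus strand) was 16.6% higher in untreated 3KR MEFs (log2 0.22 ± 0.030, FDR 1.88e-06) and 28.7% higher after NCS (log2 0.36 ± 0.030, FDR 6.77e-10). It rose by 9.24% with NCS in 3KR MEFs (log2 0.13 ± 0.030, FDR 0.00226), and its change in wild-type MEFs was -0.02 ± 0.031 (FDR 0.763). The difference between these responses was 0.14 on the log2 scale with a 95% confidence interval of 0.0545 to 0.232, and it had an unadjusted p of 0.00292 and an FDR of 0.0661. It was called by the Wald test of DESeq2 (FDR 0.0348), in the genes with at least 10 counts in every sample (FDR 0.0236) and without untreated wild-type replicate 3 (FDR 0.0362).

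Tfdp2, which encodes the less abundant DP protein, had 1001, 1058 and 1086 normalized counts in untreated and 946, 987 and 972 in NCS-treated wild-type MEFs. The 3KR MEFs had 1280, 1320 and 1237 without treatment and 1214, 1129 and 1185 after NCS. Tfdp2 (chromosome 9, 96196275 to 96323646, plus strand) was 21.6% higher in untreated 3KR MEFs (log2 0.28 ± 0.049, FDR 4.92e-05) and 21.5% higher after NCS (log2 0.28 ± 0.051, FDR 7.26e-05). NCS samples lay below untreated samples in both genotypes, but the changes, -0.12 in each, missed the threshold (FDR 0.097 in wild-type and 0.0761 in 3KR MEFs). Scaling by library totals brought both past it (FDR 0.0164 and 0.0123). The change in wild-type MEFs also passed it with a minimum of 10 counts in each sample (FDR 0.04998). That in 3KR MEFs passed it when only the 3KR samples were fitted (FDR 0.0286). Tfdp1 made up 95.1% to 95.9% of the summed DP RPKM as group means, and the sum was 39.8 to 42.6 RPKM in the wild-type and 48.8 to 52.8 RPKM in the 3KR samples.

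The MuvB core was read beside all tested genes, and with 5 genes a count of calls is coarse. With NCS, 0 of its 5 genes were called in wild-type MEFs, where 26.7% of all tested genes were called, and 0 in 3KR MEFs, where 30.8% were. None had an unadjusted p under 0.05 in edgeR in either genotype, and the Wald test of DESeq2 called 0 in each. Between the genotypes 1 of the 5 was called in each treatment, against 45.7% of all tested genes without treatment and 46.5% after NCS. This was Lin9, the subunit through which MuvB takes up B-Myb. It had 417, 435 and 385 normalized counts in untreated and 359, 410 and 402 in NCS-treated wild-type MEFs, and 463, 445 and 539 and then 508, 439 and 464 in 3KR MEFs. The genotypes did not overlap within a treatment, although the gaps were small.

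Lin9 (chromosome 1, 180641150 to 180690694, plus strand) was 16.7% higher in untreated 3KR MEFs (log2 0.22 ± 0.083, FDR 0.0321) and 20.6% higher after NCS (log2 0.27 ± 0.085, FDR 0.0118). Without treatment the call was lost in the Wald test of DESeq2 (FDR 0.0565) and without wild-type replicate 1 (FDR 0.0574), wild-type replicate 3 (FDR 0.107) or 3KR replicate 3 (log2 0.13, FDR 0.248). After NCS it was lost without wild-type replicate 1 (FDR 0.0673) or 3KR replicate 1 (FDR 0.0839).

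Lin52, the small subunit whose phosphorylation by the kinase DYRK1A starts DREAM assembly, had the widest spread. Its normalized counts were 328, 293 and 257 in untreated and 254, 255 and 226 in NCS-treated wild-type MEFs, and 265, 355 and 338 and then 246, 361 and 277 in 3KR MEFs. Its log2 fold changes were -0.26 ± 0.13 with NCS in wild-type MEFs (FDR 0.138) and 0.26 ± 0.13 for 3KR over wild-type after NCS (FDR 0.113), neither past the threshold. With no filter on low counts both passed it (FDR 0.0485 and 0.0375). When 1 sample was left out, the first had FDR values from 0.0405, without untreated wild-type replicate 3, to 0.451. The second then had FDR values from 0.0342, without NCS-treated 3KR replicate 1, to 0.6075.

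Lin54, the subunit that contacts CHR elements on DNA, had 874, 925 and 823 normalized counts in untreated and 969, 897 and 931 in NCS-treated wild-type MEFs, and 966, 929 and 924 and then 1014, 991 and 981 in 3KR MEFs. Its log2 fold changes ran from 0.09 to 0.10 in the 4 comparisons, with FDR from 0.144 to 0.25. Lin37 ran from 422 to 576 normalized counts over all samples, with log2 fold changes of -0.11, -0.07, -0.05 and -0.01 for NCS in wild-type, NCS in 3KR, genotype without treatment and genotype after NCS. Its neighbour Hspb6, which shares 3 exon bases with it on the opposite strand, was 0.82 higher on the log2 scale in untreated 3KR MEFs (FDR 3.95e-11). Rbbp4 was the steadiest member: it had 7798, 7702 and 7173 normalized counts in untreated and 7913, 7695 and 7235 in NCS-treated wild-type MEFs, and 7701 to 7943 in the 3KR samples. For Rbbp4 the 95% confidence interval of the log2 fold change was -0.0695 to 0.0829 with NCS in wild-type MEFs and -0.0455 to 0.107 between the untreated genotypes, and Rbbp4 shares 782 exon bases with Sync on the opposite strand, which was not called either (FDR 0.714 or more). Of the summed MuvB RPKM, Rbbp4 made up 56.5% to 58.0% and Lin37 21.3% to 23.7% as group means, although Rbbp4 protein also serves complexes outside MuvB.

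Counted together, 2 of the 10 members were called for NCS in wild-type MEFs, Rb1 higher and Rbl1 lower, against 26.7% of all tested genes (14.3% higher and 12.4% lower). In 3KR MEFs 4 were called, Rb1 and Tfdp1 higher and Rbl1 and Rbl2 lower, against 30.8% of all genes (15.8% higher and 15.0% lower). Between the untreated genotypes 6 members were called, 5 of them higher in 3KR MEFs, against 45.7% of all genes, of which 22.1% were higher and 23.6% lower. After NCS the same 6 members were called in the same directions, against 46.5%, with 22.9% of all genes higher and 23.6% lower. Over all genes, 34.8% were called in the same direction in both treatments. The untreated and treated comparisons of genotype use different samples, whereas each shares samples with the comparisons of treatment. The samples of the groups compared did not overlap for 4 members with NCS in wild-type MEFs (35.1% of all genes) and for 6 in 3KR MEFs (47.6%), and they did not overlap between the genotypes for 6 members without treatment (53.5%) and for 7 after NCS (54.3%). In the test of the difference between the responses, 0 members were called by edgeR, against 3.73% of all genes. In edgeR 1 member (Tfdp1) had an unadjusted p under 0.05, as did 2499 of all 15327 genes. The Wald test of DESeq2 called 1 member, against 633 of the 11180 genes to which it gave an FDR.

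**Figure D3:**
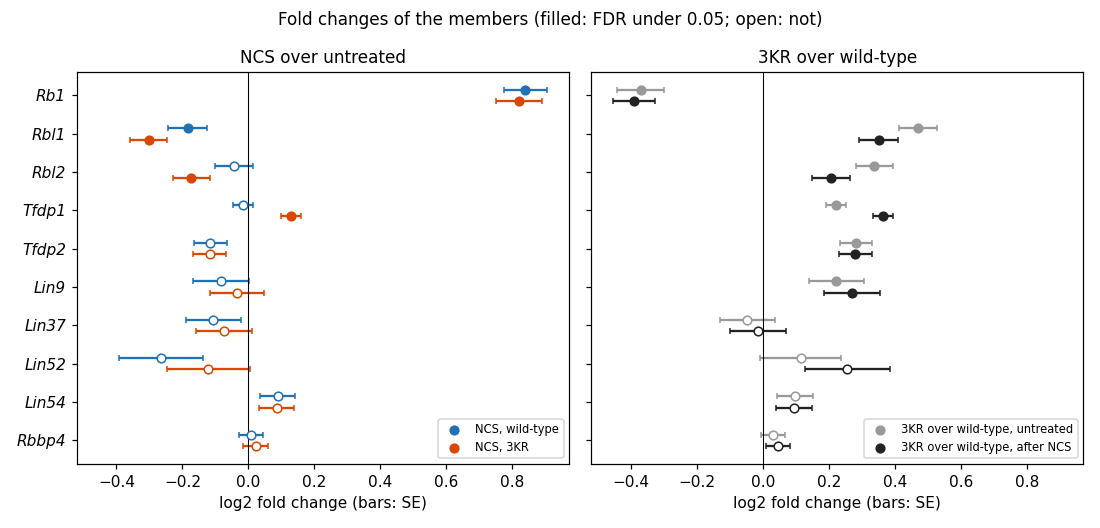
Log2 fold changes (horizontal axis; whiskers are SE) of the 10 members for NCS over untreated cells in each genotype (left) and for 3KR over wild-type MEFs in each treatment (right), with filled points where the FDR is under 0.05. Rb1 stands at 0.84 and 0.82 with NCS and at -0.37 and -0.39 between the genotypes, while 4 MuvB genes (Lin37, Lin52, Lin54 and Rbbp4) have open points throughout.

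Other measures differed between the genotypes along with these genes. The 8 macrophage markers were all higher in 3KR MEFs in both treatments and summed to 163 to 188 CPM against 89.1 to 108 CPM in wild-type MEFs. Of the 7 Schwann cell markers 5 were lower, with sums of 36.0 to 44.3 CPM against 197 to 211 CPM. Muscle markers summed to 52.8 to 58.0 CPM against 134 to 144 CPM, and most of this sum was Des alone. Des had means of 4583 normalized counts in untreated wild-type and 1589 in untreated 3KR MEFs. Only 3 of the 6 muscle markers passed the filter, and of these 2 were called lower without treatment and 3 after NCS. None of the macrophage or Schwann cell markers was at 0 in any group, and 7 of the 9 fibroblast markers were higher and 2 lower in untreated 3KR MEFs. The part of these differences, and of sex, in the genotype differences of the members was not tested. Without both wild-type libraries numbered 3, an alternative chosen after seeing the data, the calls of members between genotypes were the same except that Lin9 without treatment was lost (FDR 0.0624). With NCS, Tfdp2 was then also called in 3KR MEFs (FDR 0.0341), and the difference in response was called for Tfdp1 (FDR 0.0045).

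The partners of these proteins were read from lists of genes of the same pathway, of which the share called can be set beside the shares of all genes given above. Of the 8 E2F genes, E2f1 itself, whose protein carries the altered lysines, had a mean of 1146 normalized counts in untreated and 1237 in NCS-treated wild-type MEFs and 1121 and 1223 in 3KR MEFs, with no comparison called (FDR 0.135 to 0.951). E2f4, the E2F of the DREAM complex, was also not called in any comparison. In 3KR MEFs 3 E2F genes (E2f3, E2f7 and E2f8) rose and 1 (E2f5) fell with NCS, and in wild-type MEFs the FDR of all 8 lay between 0.137 and 0.821. The number that rose was 5 in the fit of the compared groups alone and 5 without the wild-type libraries numbered 3. The difference in response was called for E2f7 (0.36, FDR 0.0478), a call lost under library totals and under DESeq2 size factors. E2f2 was higher in 3KR MEFs in both treatments (log2 0.72, FDR 0.000776, and 0.93, FDR 0.000108), at means of 82.4 and 64.0 normalized counts in wild-type and 136 and 121 in 3KR MEFs.

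Among the factors that take the place of pocket proteins on MuvB, Foxm1 fell with NCS by 0.43 in wild-type MEFs (log2, FDR 1.05e-06) and by 0.17 in 3KR MEFs (FDR 0.0118). The difference between these responses, 0.25 on the log2 scale, was not called (FDR 0.0505). Foxm1 was 0.38 higher in 3KR than in wild-type MEFs after NCS (FDR 2.22e-06) and 0.12 without treatment (FDR 0.0518). Mybl2, encoding B-Myb, was higher in 3KR MEFs in both treatments (log2 0.25, FDR 0.00367, and 0.49, FDR 2.23e-06) and was not called for NCS. Mybl1, encoding the related A-Myb, rose with NCS by 1.35 in wild-type and 1.17 in 3KR MEFs on the log2 scale (FDR 2.14e-12 and 7.86e-11), in the direction of Rb1, and was lower in 3KR MEFs by 0.36 and 0.54 (FDR 0.00124 and 8.68e-07).

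The enzymes that add or remove phosphates on pocket proteins changed in part. Of 11 cyclin and kinase genes, 5 were lower and 3 higher in untreated 3KR MEFs. The number lower was 4 under DESeq2 size factors, library totals, the Wald test of DESeq2 and no filter. Of the 5, Dyrk1a had the FDR nearest the threshold (0.044). The D-type cyclins Ccnd1 and Ccnd2 were lower in both treatments (log2 -0.22 and -0.20 for Ccnd1, -0.31 and -0.38 for Ccnd2). Ccna2, encoding the S and G2 phase cyclin A2, fell with NCS by 0.84 in wild-type and 0.54 in 3KR MEFs, and these responses differed (0.29, FDR 0.0049). Dyrk1a, the kinase of Lin52, had log2 fold changes with NCS of 0.14 in wild-type (FDR 0.0196) and 0.12 in 3KR MEFs (FDR 0.0558), and of -0.12 between the untreated genotypes (FDR 0.044). Of 6 phosphatase genes, 3 (Ppp2ca, Ppp2r1a and Ppp2r2a, subunits of PP2A) were lower and none higher in 3KR MEFs in both treatments, with Ppp2r2a at -0.28 without treatment (FDR 3.2e-06). After NCS the counts became 2 higher and 2 lower under library totals and 1 higher and 2 lower with no filter.

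All 6 CDK inhibitor genes in the files were called for NCS in wild-type MEFs, 4 higher and 2 lower. The number called higher was 3 under library totals, under the Wald test of DESeq2, with a minimum of 10 counts and in the fit of the compared groups alone, and Cdkn1c, encoding p57, had the FDR nearest the threshold (0.0482). In 3KR MEFs 1 of the 6 rose and 2 fell, and Cdkn1c was lower with NCS by 0.34 (FDR 0.000498), a response that differed from that of wild-type MEFs by -0.535 on the log2 scale (FDR 0.00211). Cdkn1a, encoding p21, rose from a mean of 17387 to 39438 normalized counts in wild-type MEFs (log2 1.18, FDR 1.32e-18) and from 9816 to 24824 in 3KR MEFs (log2 1.34, FDR 1.02e-19), and was lower in 3KR MEFs by 0.83 and 0.67 on the log2 scale. Cdkn2a and Cdkn2c, whose products inhibit the D-type cyclin kinases or, for Cdkn2a, also protect p53, differed between untreated genotypes by -0.91 (FDR 4.85e-13) and 0.43 (FDR 6.4e-07). Of 11 co-repressor genes, 3 were higher and 3 lower in untreated 3KR MEFs, and the number lower was 1 with no filter, 2 under library totals and 4 without the wild-type libraries numbered 3. Dnmt1, the maintenance DNA methyltransferase, was higher by 0.35 (FDR 5.63e-09), and Sin3b, a scaffold of histone deacetylase complexes, was lower by 0.21 (FDR 4.44e-05). Rbbp7, the close relative of Rbbp4 encoded on the X chromosome, was lower by 0.09 (FDR 0.0168) in untreated and by 0.08 (FDR 0.027) in NCS-treated 3KR MEFs. Of the 3 genes lower without treatment, Rbbp7 and Hdac2 (FDR 0.0191) had the FDR values nearest the threshold.

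Genes that these complexes are known to control were read from a G1/S and a G2/M list. Of 24 G1/S genes, which hold E2F targets for DNA replication, 22 were higher and 0 lower in untreated 3KR MEFs, with a median log2 fold change of 0.32 (all tested genes: -0.000356). After NCS 22 were again higher and 0 lower, with a median of 0.42. The replicative helicase genes Mcm3 and Mcm7 were 0.43 and 0.38 higher on the log2 scale without treatment (FDR 8.99e-10 and 6.93e-09). With NCS 4 rose and 1 fell in wild-type and 8 rose and 0 fell in 3KR MEFs, and the count of 8 ran from 5 under library totals to 12 without the wild-type libraries numbered 3. Rrm2, a ribonucleotide reductase gene, rose by 0.30 in wild-type and by 0.41 in 3KR MEFs (FDR 7.83e-06 and 4.03e-08).

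Of 22 G2/M genes, which hold targets of MuvB with B-Myb or FoxM1, 22 fell with NCS in wild-type MEFs at a median of -0.81 and 20 fell in 3KR MEFs at a median of -0.54, and none rose in either. Plk1, a mitotic kinase, had means of 2137 and 854 normalized counts in untreated and NCS-treated wild-type MEFs and of 2464 and 1397 in 3KR MEFs (log2 -1.33, FDR 2.08e-15, and -0.82, FDR 2.67e-12). Cenpf, a kinetochore protein gene, fell by 1.60 and 1.22 on the log2 scale (FDR 8.35e-15 and 1.75e-13). The difference between the responses was called for 14 of the 22 genes, in each case with the smaller fall in 3KR MEFs, and for Plk1 it was 0.51 (FDR 4.28e-05). This count was 12 with no filter on low counts, 16 with a minimum of 10 counts and 18 without the wild-type libraries numbered 3. In 3KR MEFs 20 of the genes were higher without treatment and 22 after NCS, and none was lower. 

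**Figure D4:**
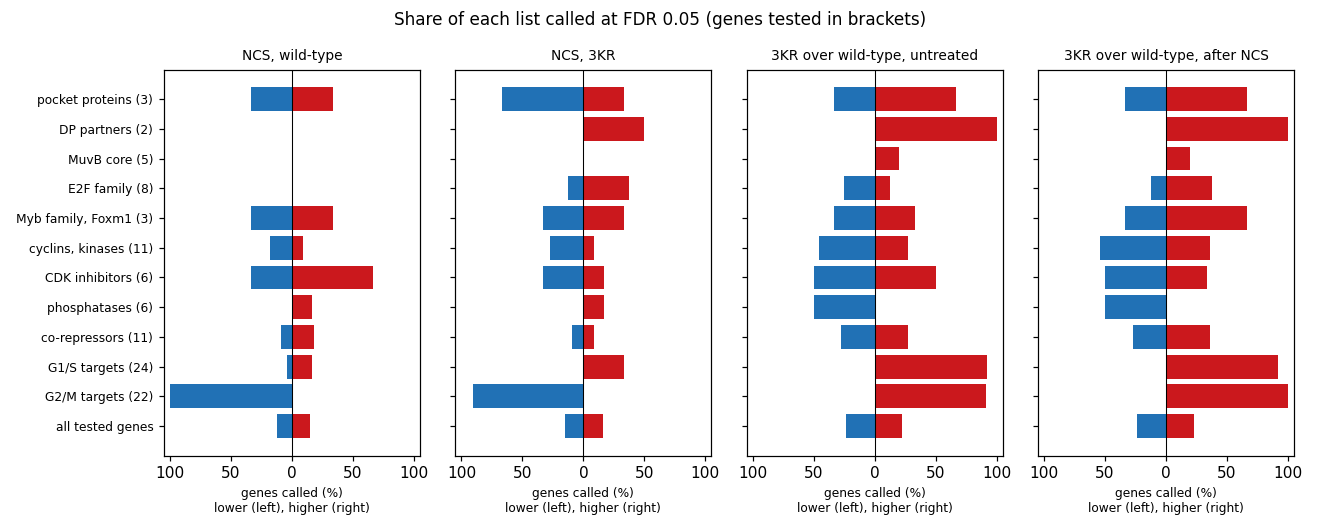
Share of the genes of each list called at an FDR under 0.05 (horizontal axis, percent; lower in blue to the left, higher in red to the right) in the 4 comparisons, with all tested genes in the bottom row and the number of genes tested in brackets. All 22 G2/M targets are lower with NCS in wild-type MEFs. There 0 of the 5 MuvB core genes are called, against 26.7% of all tested genes. In 3KR MEFs 22 of the 24 G1/S targets are higher in both treatments.

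Across the 12 samples the members fell into patterns, described here by Pearson's r of log2 CPM, for which the samples share their group and library scaling. Rbl1 followed Rbl2 (r = 0.95), Rbl2 followed Tfdp2 (r = 0.915), and Rb1 ran against Rbl1 (r = -0.787). The MuvB genes were less alike: the highest r between Lin37 and any other member was 0.251, with Lin52, and Lin54 and Rbbp4 had an r of 0.637. Over all tested genes, the one most like Rb1 was Homer3 (r = 0.99), the one most like Rbl1 was Ddx51 (r = 0.977), the one most like Rbl2 was Pde7b (r = 0.972), the one most like Tfdp1 was Idh2 (r = 0.988) and the one most like Tfdp2 was Pdzrn3 (r = 0.98). In the MuvB core, Rbbp4 was most like Selenof (r = 0.969), Lin52 most like Xpa (r = 0.895) and Lin37 most like Edem2 (r = 0.848), and the genes most like Lin9 (r = 0.919) and Lin54 (r = 0.937) had identifiers without a symbol in the annotation.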

How the data were processed

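RNA-seq of 12 MEF samples was read from 1 file per sample. The authors deposited raw counts of reads per Ensembl gene, neither normalized nor filtered. Per the labels the libraries were stranded mRNA libraries, and the submitters' processing notes name TopHat, HTSeq, DESeq and the build mm9, without versions; the strand setting of the counting is not given in the sources used here. Reads of overlapping genes on opposite strands may therefore be shared. Symbols, positions and exon lengths came from GENCODE M21 (GRCm38), which matched 32919 of 37991 identifiers (5072 were not matched), by identifier only, since the builds differ. Promoter sequences came from RefSeq (GRCm38.p6).

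Groups were taken from the labels. Counts were filtered with filterByExpr, normalized by TMM and fitted with edgeR 4.0.16 in R 4.3.3, with 1 coefficient per group and all 12 samples in the fit. The quasi-likelihood F test was applied to NCS in each genotype, genotype in each treatment and the difference in response, two-sided, with Benjamini-Hochberg adjustment over 15327 genes and a threshold of 0.05. Intervals are 95% confidence intervals of the log2 fold change. The common biological coefficient of variation was 3.95%. Normalized counts are counts divided by DESeq2 1.42.0 size factors, RPKM uses merged exon length and library totals, and correlations use log2 CPM with a prior count of 2. Depth, at 33203757 to 45279321 counts per sample, sets a floor of 3 counts, which covers counting error only. The fits were tested on simulated data, in which edgeR recovered 78.6% and 74% of the changed genes for NCS in wild-type and 3KR MEFs. For genotype it recovered 91.3% without treatment and 91.8% after NCS. The planted changes were larger than those of the members, except that of Rb1 with NCS. These percentages are therefore not the power to detect the changes of the members. No difference in response and no sample that stands apart were simulated, so the simulation does not cover these cases. Alternatives were DESeq2 size factors, library totals, the Wald test of DESeq2, no filter, a minimum of 10 counts in each sample, fits of the compared groups alone, a replicate block and each sample left out.

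The members and gene lists were chosen with earlier results of these data known. All members are named. From each list, genes called in both genotypes or both treatments with the 3 lowest p-values were picked. The text names only some of these picks, and leaves out Msh6, Smarca2, Cdk1, Mcm4, Bub1b and Mki67. E2f1, E2f4, Mybl2, Foxm1, Rbbp7, Dyrk1a and Cdkn1a are named in any case, as is the gene most correlated with each member. Overlapping neighbours of members, Ccna2 for its difference in response, Des, and some genes from short counts of calls were named after their values were seen. The last are outside the rule and include E2f3, E2f5, E2f7, E2f8, Zmat3 and Trp53inp1. Same-numbered samples were not paired: the correlation of their deviations was 0.000644 to 0.0973.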

Additional observations from a re-analysis of the deposited data

How the results depend on the processing

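Of the 18 member values past the threshold, 0 changed sign under any alternative, and the 13 member values that did were all uncalled, at log2 sizes of at most 0.142. The members called for NCS in wild-type MEFs numbered 1, not 2, when only the samples compared were fitted, and 1 to 3 when 1 sample was left out, with Rbl1 lost without untreated replicate 1 or NCS replicate 3. They numbered 3 under library totals and with a minimum of 10 counts, where Tfdp2 was added, and with no filter, where Lin52 was added. The members called for the difference in response numbered 1 (Tfdp1), not 0, with the Wald test of DESeq2, with a minimum of 10 counts, with a replicate block and without both wild-type libraries numbered 3, and 0 to 1 when 1 sample was left out (1 without untreated wild-type replicate 3). Over all genes, the difference was called for 572 genes, for 1379 with a replicate block, for 1842 without both wild-type libraries numbered 3 and for 345 to 1159 when 1 sample was left out, the highest without untreated wild-type replicate 3. The replicate block gave 3, 4, 6, 6 and 1 members for NCS in wild-type, NCS in 3KR, genotype without treatment, genotype after NCS and the difference; wild-type samples, but not all 3KR samples, correlated best with their own number, the numbers share no stated origin, and the block changed no other call of a member than those of Tfdp1 for the difference (FDR 0.00793) and Lin52 with NCS in wild-type MEFs (FDR 0.0322); among the lists, it gave 20 G2/M genes for the difference and 5 E2F genes higher with NCS in 3KR MEFs. Scaling by library totals moved the median of all genes by NCS to -0.0424 in wild-type and -0.0465 in 3KR MEFs and split the calls into 1464 higher and 2885 lower, against 2189 and 1901, and 1718 and 3275, against 2417 and 2304. Signs turned for Rbbp4 with NCS in wild-type MEFs (-0.041 with library totals, -0.00765 with a minimum of 10 counts, -0.00828 in the fit of these groups alone) and in 3KR MEFs (-0.024 with library totals), for Lin37 between NCS-treated genotypes (0.00544 with library totals), and in the difference for Tfdp2 (0.000239 with library totals, 0.017 with a minimum of 10 counts) and Lin54 (0.016 with a minimum of 10 counts, 0.034 without both wild-type libraries numbered 3). Leaving out 1 sample turned signs within these ranges: Rbbp4 with NCS in wild-type MEFs -0.029 to 0.041, Lin9 with NCS in 3KR MEFs -0.096 to 0.056, Lin37 and Rbbp4 between untreated genotypes -0.10 to 0.059 and -0.00458 to 0.055, and Lin37 between NCS-treated genotypes -0.060 to 0.050. In the difference the ranges were -0.082 to 0.043 for Rb1, -0.028 to 0.032 for Tfdp2, -0.022 to 0.050 for Rbbp4, -0.073 to 0.097 for Lin37, -0.044 to 0.036 for Lin54, -0.014 to 0.14 for Lin9 and -0.021 to 0.26 for Lin52. The causes of these changes were not tested. Shares within a family counted without gene length were beyond 1 SD of the share by RPKM in 38 of 40 cases, as length enters only one of them. At 227 to 593 raw counts, Lin9, Lin37 and Lin52 have the widest errors of the members.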

Other observations

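Among 10 genes activated by p53, 8 rose and 1 fell with NCS in each genotype, with median log2 fold changes of 0.68 in wild-type and 0.86 in 3KR MEFs (edgeR, FDR under the threshold). In untreated 3KR MEFs 8 of the 10 were lower than in wild-type MEFs and 1 was higher, with a median of -0.28, and after NCS 7 were lower and 1 higher, with a median of -0.15. Without treatment the number lower was 7 under library totals, the Wald test of DESeq2 and no filter. After NCS the number higher was 0 under DESeq2 size factors and the Wald test of DESeq2. The number lower after NCS was 6 under that Wald test and with no filter, and 5 under library totals. Pmaip1, encoding the pro-apoptotic protein Noxa, had means of 3703 and 1047 normalized counts in NCS-treated wild-type and 3KR MEFs (log2 -1.82, FDR 2.36e-17) and rose with NCS by 2.05 and 2.35 on the log2 scale in the 2 genotypes. Ccng1, encoding cyclin G1, rose by 1.01 in wild-type and by 1.35 in 3KR MEFs, and these responses differed by 0.34 (FDR 5.73e-05). The difference in response was called for 4 of the 10 genes, in each case with the larger rise in 3KR MEFs, where each of the 4 (Cdkn1a, Ccng1, Zmat3 and Trp53inp1) was lower without treatment (log2 -0.83, -0.76, -0.29 and -0.21). This count was 5 under library totals, the Wald test of DESeq2 and no filter.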
